A study of Homo sapiens with 4 samples.

Results

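The cytosolic ribosomal protein genes of SKOV3 cells were compared between a tissue culture plate (TCP) and a plate coated with polymer X. Members were taken by symbol, as RPL or RPS followed by a number (with an optional A, X or L), RPLP0, RPLP1, RPLP2 and RPSA. This gave 81 of the 19475 gene symbols measured, 49 of the large subunit and 32 of the small subunit. Of these, 77 were the usual genes and 4 were variant paralogs (RPL3L, RPL10L, RPL39L and RPS27L). The names FAU and RACK1 do not follow the rule, although each encodes a ribosomal protein, and they are described separately.

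SKOV3 is an established human ovarian cancer cell line. RNA was sequenced from 2 libraries of cells on TCP, labelled day 0, and 2 libraries of tumor spheroids after 8 days on polymer X, a polymer thin film on which the cells form spheroids. The spheroids grew in medium with serum replacement and, according to the study's methods, were dissociated with accutase during culture. The labels give the same medium for the TCP libraries, whereas the methods state fetal bovine serum for routine culture of the line. Substrate, culture time and possibly serum therefore changed together and cannot be told apart. The labels do not say whether the 2 libraries of a group came from separate cultures, so p-values measure only the spread between these libraries, which may be technical.

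Each ribosome has a small subunit (40S), which reads the mRNA, and a large subunit (60S), which joins the amino acids, and most of their proteins are present in 1 copy per ribosome. In mammals, nearly all of these proteins come from single active genes, whose abundant and short mRNAs start with a run of pyrimidines, the 5′ terminal oligopyrimidine (TOP) motif. Through this motif, the kinase mTOR and the RNA-binding protein LARP1 set how much of the mRNA is translated and stored, and growing cells spend a large part of their mRNA on this family.

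The values were FPKM (tags counted on a transcript, divided by its length and by the library total), and the library totals ran from 38403000 to 44912000 tags, both of these on TCP. Epithelial KRT8 was present in all 4 libraries but lower on polymer X, at 262 and 269 FPKM on TCP and 146 and 143 on polymer X. Müllerian PAX8 was higher, at 48.8 and 50.5 FPKM on TCP and 102 and 108 on polymer X. Of the 9 listed line markers, 4 were under 1 FPKM in each TCP library and 3 in each polymer X library. Among these were epithelial KRT19 and the ovarian markers WT1 and MUC16, under 1 FPKM in all 4 libraries. Leukocyte markers summed to 0.111 to 0.160 FPKM on TCP and 1.01 to 1.06 on polymer X, and endothelial markers to 0.457 to 0.832 in all. Fibroblast markers summed to 8.44 and 8.68 FPKM on TCP and to 16.7 and 14.8 on polymer X. Of the 5 fibroblast markers, DCN (log2 fold change 2.93) and COL3A1 (2.53) were higher. Both reached 1 FPKM only on polymer X and were at or under 0.041 FPKM on TCP, so the size of their fold changes is uncertain. COL1A1 (-0.96) was lower, and PDGFRA and PDGFRB stayed at or under 0.291 FPKM. The part of these markers in the results was not tested. Replicates correlated at r = 0.998 (TCP) and 0.997 (polymer X) across 11964 genes, which are not independent of each other. FPKM gives each mRNA relative to the other mRNAs of its library, so neither RNA per cell nor the amount of ribosome was measured, and in bulk RNA fewer cells with a transcript and less of it per cell cannot be told apart.

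The start of the transcript is the sequence that these genes share. Reference windows around the start were available for 64 of the 81 members (RefSeq, GRCh38.p14). A gene counted if, at any annotated start, the base was C, followed by at least 4 more C or T bases. This held for 46 of the 64 members (71.9%), against 4.99% of 27241 other genes. The windows below are shown for genes with large and small differences between the cultures. They hold 10 bases before and 20 bases from the annotated start, 5′ to 3′ on the gene's strand, with the pyrimidine run in capitals. RPSA and RPS12 belong to the small subunit, RPL35 and the stalk genes RPLP0, RPLP1 and RPLP2 to the large, and all lay lower on polymer X.
RPSA, chr3:39406710-39406739, plus strand: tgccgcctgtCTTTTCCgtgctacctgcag
RPLP0, chr12:120201092-120201121, minus strand: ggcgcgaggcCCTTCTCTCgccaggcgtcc
RPLP1, chr15:69452808-69452837, plus strand: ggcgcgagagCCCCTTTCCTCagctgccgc
RPLP2, chr11:809957-809986, plus strand: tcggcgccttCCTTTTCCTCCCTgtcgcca
RPS12, chr6:132814559-132814588, plus strand: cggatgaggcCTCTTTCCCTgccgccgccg
RPL35, chr9:124861938-124861967, minus strand: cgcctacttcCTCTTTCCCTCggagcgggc

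The next 3 windows belong to genes with small or no called differences. RPL34 and RPS27 carried a run, while the pyrimidines at the annotated start of RPL3 were too few to count as one (minimum 5 bases).
RPL34, chr4:108620566-108620595, plus strand: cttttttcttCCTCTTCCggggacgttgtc
RPS27, chr1:153990752-153990781, plus strand: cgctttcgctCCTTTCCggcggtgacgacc
RPL3, chr22:39319604-39319633, minus strand: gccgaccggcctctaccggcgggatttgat

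The RPS26 window is shown because this gene had the lowest fold change of the family and no run at its annotated start.
RPS26, chr12:56041908-56041937, plus strand: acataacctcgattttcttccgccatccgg

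The run had a median of 8 bases and was longest in RPL39 (19 bases). The 46 tested members with a run had a median log2 fold change of -0.73, and the 17 tested members without one a median of -0.62, so both sets lay below 0. Where a gene had more than 1 annotated start, that with the longest run was used, for members and other genes alike. RPL34, shown above, had 2 such windows. A run present or missing at an annotated start does not say where transcription began in these cells.

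Ribosomal protein mRNAs were lower in the polymer X spheroids almost throughout the family. Of the 81 members, 79 passed the filter of at least 1 FPKM in at least 2 libraries. Of these, 75 were lower on polymer X, 0 were higher and 4 had no call at an adjusted p under 0.05 (limma on log2(FPKM + 1), polymer X against TCP, Benjamini-Hochberg over all tested genes). Over all 11964 tested genes, 43.6% were lower and 37.4% higher, so 94.9% of members being lower stood well above the background. RPS18 passed the filter through its TCP values alone, and without it 74 of 78 were lower. The other members, RPL3L and RPL10L, had at most 2 tags in any library and could not be tested.

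The shift was of moderate size. The median log2 fold change of the members was -0.70, against -0.06 for all tested genes, and members on polymer X lay at a median of 61.0% of their TCP level. The middle of the distribution ran from -0.91 to -0.54 (interquartile range) and the whole from -1.75 to -0.11. All 79 log2 fold changes were negative in the deposited scaling and after scaling to the median or by median of ratios, whereas 5 turned positive after quantile normalization, among them RPL3, RPL34, RPS27 and RPS27L. Quantile normalization, which gives every library the same distribution, also brought the members' median to -0.41 and left 64 members lower, so the size of the shift depends on the scaling more than its direction does. For 76 members both polymer X libraries lay below both TCP libraries, which held for 48.4% of all tested genes (41.9% lay above in the same way). With 2 libraries against 2 an exact permutation test of a single gene cannot go below p = 0.333.

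A larger difference was seen in a minority of members. Over all tested genes, 9.45% were called lower with a log2 fold change at or below -1, and 10.7% higher at that size. Among the 79 tested members, 14 were called lower at that size. This count was 22 without TCP replicate 2 and 10 without TCP replicate 1. Those 14 were RPS26, RPSA, RPS2, RPS12, RPS15 and RPS27A of the small subunit and RPLP0, RPLP1, RPL21, RPL27, RPL35, RPL36A, RPL39 and RPL39L of the large subunit. With a pseudocount of 0.1 the count was 15, and RPS18 was at -1.92.

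**Figure D1:**
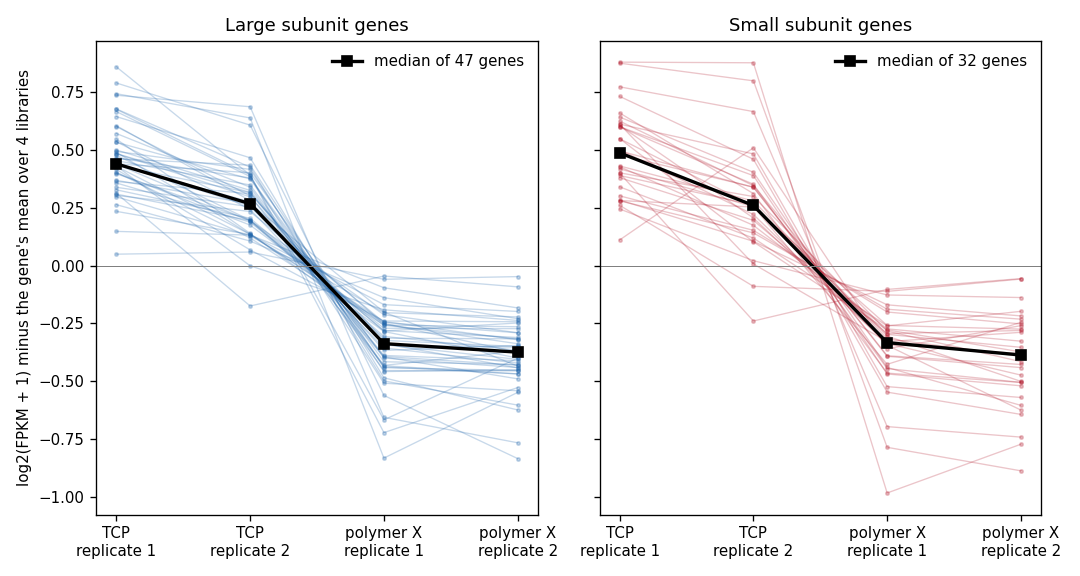
Level of each tested member in the 2 TCP and 2 polymer X libraries, as log2(FPKM + 1) minus the gene's own mean over the 4 libraries, with a thin line for each gene and squares for the median of each subunit. On the FPKM scale the median member lay at 344 and 293 FPKM in the TCP libraries and at 202 and 197 FPKM in the polymer X libraries.

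**Figure D2:**
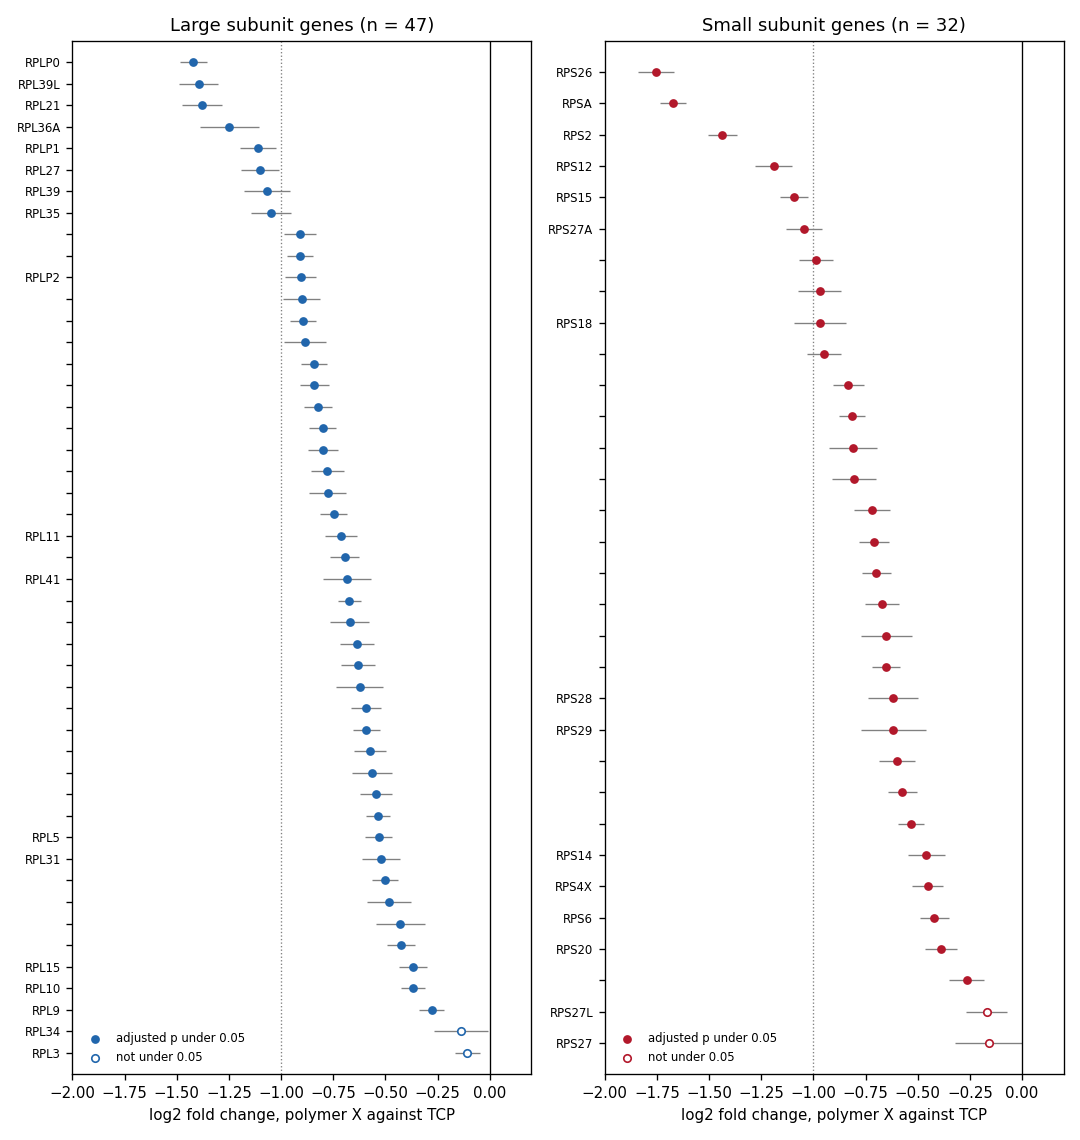
Log2 fold change (polymer X minus TCP, on log2(FPKM + 1)) of each tested member (filled points, called; open points, no call) with bars of 1 SE to each side, ordered by size, large subunit on the left and small subunit on the right, with names for the genes singled out in the text. Every point lay below 0, from -1.75 for RPS26 to -0.11 for RPL3, but 5 points moved above 0 after quantile normalization.

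The family took up less of the transcriptome in the spheroids. Ribosomal protein genes made up 10.2% and 9.18% of the summed FPKM in the TCP libraries and 6.55% and 6.52% in the polymer X libraries. The polymer X libraries thus lay close together and both below the TCP libraries, with means of 9.69% ± 0.722 and 6.54% ± 0.0201 (SD, n = 2). The difference was -3.15 percentage points, several times the pooled replicate SD of 0.511. Because the transcripts are short, the same genes held only 3.10% and 2.75% of the tags on TCP and 1.86% and 1.84% on polymer X.

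The ranks changed with the shares. Among the 100 genes with the highest FPKM, 40 and 37 were members in the TCP libraries and 27 and 26 in the polymer X libraries. Genes outside the family took these places, and the most abundant of them held larger shares. FTH1, the heavy chain of the iron store ferritin, was the top gene on polymer X with 3.35% and 3.45% of the summed FPKM. It was already the top gene of TCP replicate 2, with 0.998%, while another gene led TCP replicate 1 with 1.03%. The 10 most abundant genes outside the family held 6.32% and 6.26% on TCP and 9.65% and 9.91% on polymer X. A rise of a few abundant genes lowers every other share, and the part of this in the family's decrease was not tested beyond the scalings given above.

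**Figure D3:**
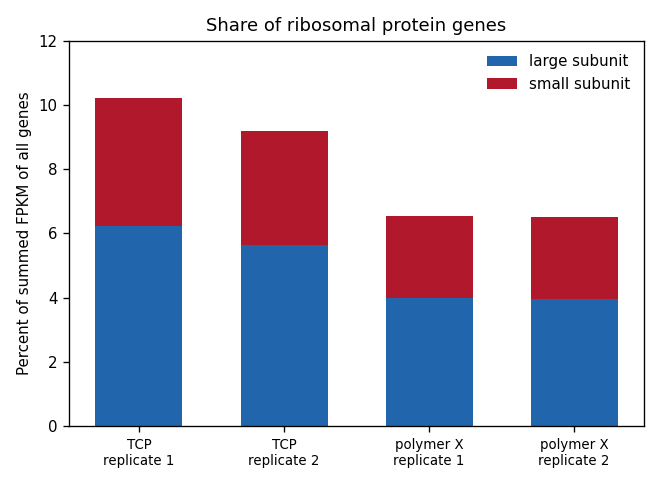
Share of the summed FPKM (percent, axis from 0) held by large and small subunit genes in each of the 4 libraries. The large subunit held a mean of 5.94% on TCP and 3.97% on polymer X, and the small subunit 3.76% and 2.57%.

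The large and the small subunit moved by nearly the same amount. Among large subunit genes, 45 of 47 tested were lower, with a median log2 fold change of -0.70 and a median level of 61.5% of TCP. Among small subunit genes, 30 of 32 were lower, with a median of -0.70 and a level of 60.5% of TCP. The medians differed by 0.0085 (large minus small), less than the replicate SD of that difference (0.0288). Without the variant paralogs the medians were -0.69 and -0.71. The ratio of the summed FPKM of the large to the small subunit was 1.58 and 1.58 on TCP and 1.56 and 1.54 on polymer X. Its means, 1.58 ± 0.00536 and 1.55 ± 0.0103 (SD, n = 2), differed by 0.0325 and the libraries did not overlap, although the difference is small beside the fall in level.

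The order of the genes by level was largely the same in both cultures. Across the 79 tested members the mean log2 levels on TCP and on polymer X had a Pearson r of 0.986 and a Spearman rho of 0.976, given as a description since the genes share their libraries. Among the 68 members with a mean of at least 30 FPKM, the SD of the log2 level was 1.09 and 1.11 on TCP and 1.06 and 1.07 on polymer X. Over all 79 tested members the fold change correlated weakly with the mean level (r = 0.20, rho = 0.036) and with transcript length (r = 0.032, rho = 0.089). Among the 68 members the correlation with level was r = -0.16 (rho = -0.15). The 11 tested members under 30 FPKM nevertheless had a lower median (-0.97, against -0.68), on a scale that understates the fold changes of low genes.

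The stalk proteins of the large subunit, which recruit translation factors to the ribosome, were lower, RPLP0 and RPLP1 by more than most of the family and RPLP2 at its lower quartile. RPLP0 (NM_053275, hg19 chr12:120634503-120639014), the base of the stalk, measured 531 and 513 FPKM on TCP and 202 and 187 FPKM on polymer X. The libraries of each culture lay close together and far from those of the other, with a log2 fold change of -1.42 (SE 0.065, adjusted p = 6.78e-08). RPLP1 (NM_001003, chr15:69745159-69747884), which binds RPLP0 in a pair with RPLP2, was the large subunit gene with the highest level, at 1286 and 1137 FPKM on TCP and 588 and 534 on polymer X. Its log2 fold change was -1.11 (SE 0.087, adjusted p = 2.08e-06). RPLP2, its partner, measured 718 and 643 FPKM on TCP and 366 and 358 on polymer X (log2 fold change -0.91, adjusted p = 2.69e-06). All 3 stalk genes were lower, with a median of -1.11, and their starts carried the runs shown above.

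RPSA encodes a protein on the solvent side of the small subunit that is also known as the laminin receptor precursor. It measured 259.7 and 246 FPKM on TCP and 81.5 and 75.9 FPKM on polymer X (NM_002295, hg19 chr3:39448180-39454032). The cultures were separated by a gap many times the distance between replicates, and the log2 fold change of -1.67 (SE 0.062, adjusted p = 1.75e-08) was the lowest among members above 30 FPKM. RPS2, a neighbour of the mRNA entry channel, measured 943 and 876 FPKM on TCP against 340.4 and 329.8 on polymer X. RPS2 was thus lower to a similar degree, with a log2 fold change of -1.44 (SE 0.069, adjusted p = 9.24e-08).

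RPS12 and RPS15 lie in the head of the small subunit. RPS12 measured 312 and 258 FPKM on TCP and 128 and 119.6 on polymer X, and fell by 1.19 on the log2 scale (adjusted p = 1.45e-06). RPS15, close to the decoding site, measured 649 and 593 FPKM against 295 and 286 (log2 fold change -1.09, adjusted p = 5.31e-07). In both genes the TCP libraries stood apart from the polymer X libraries, with TCP replicate 1 the highest. All 14 genes listed for the head were lower, beside 43.6% of all tested genes. Their median was -0.76, close to the median of the whole subunit, where 30 of 32 were lower. RPS18, which is among the 14, passed the filter through its TCP values alone. With the filter at a mean of 5 FPKM, which leaves RPS18 out, 12 of 12 tested were lower. After quantile normalization 13 of the 14 were lower, and without a filter 11. RPS27A, made as a fusion of ubiquitin and a small subunit protein, measured 254 and 215 FPKM on TCP and 119.5 and 107 on polymer X (log2 fold change -1.04, adjusted p = 3.41e-06).

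In the large subunit, RPL27 and RPL35 were abundant genes that more than halved. RPL27 measured 896 and 752 FPKM on TCP and 396 and 368 on polymer X, and fell by 1.10 on the log2 scale (adjusted p = 3.00e-06). RPL35, which lies at the exit of the peptide tunnel, measured 1229 and 1012 FPKM against 545 and 532 (log2 fold change -1.05, adjusted p = 5.71e-06). The TCP replicates of both genes differed more than the polymer X replicates, yet remained well above them.

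The remaining members with large differences had low FPKM for this family. RPS26, at the mRNA exit of the small subunit, measured 7.94 and 7.92 FPKM on TCP and 1.46 and 1.85 on polymer X, the lowest fold change of all (-1.75, adjusted p = 9.96e-08). RPL21 measured 11.6 and 10.7 FPKM on TCP and 3.22 and 4.14 on polymer X (log2 fold change -1.38, adjusted p = 1.00e-06). RPL36A measured 5.07 and 3.39 FPKM on TCP and 1.03 and 1.32 on polymer X (log2 fold change -1.25, adjusted p = 2.65e-05). In each of them polymer X lay below TCP without overlap, as in 48.4% of all tested genes. The replicates of RPL36A were uneven on TCP. Many ribosomal protein genes have near-identical processed copies in the genome, which can split or lose their reads, and so the levels of these low members are uncertain.

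The 11 tested members with a mean under 30 FPKM had a median log2 fold change of -0.97. The 68 members above this level had a median of -0.68. Of these 68, 65 were lower (95.6%), beside 43.6% of all tested genes. The family's decrease was therefore present without the low members. RPS18 was listed at 6 genomic places, including alternative haplotypes. RPS18, the small subunit gene with the lowest level, measured 2.00 and 1.47 FPKM on TCP and 0.532 and 0.262 on polymer X, and its log2 fold change of -0.97 (adjusted p = 6.24e-05) has the same uncertainty. RPS28 measured 4.43 and 6.16 FPKM on TCP and 2.92 and 3.20 on polymer X, so the gap between the TCP libraries was wider than the gap from the lower of them to polymer X (log2 fold change -0.62, adjusted p = 0.000982), and the call was lost without a filter (adjusted p = 0.0824).

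At the other end, 4 members had no call. RPL3, a core protein next to the peptidyl transferase centre, measured 420.4 and 423 FPKM on TCP and 389.9 and 393 on polymer X (NM_000967, hg19 chr22:39708887-39715670). Both polymer X libraries lay below both TCP libraries, but only slightly, with a log2 fold change of -0.11 (95% interval -0.25 to 0.03, adjusted p = 0.132). The interval lies above the family median of -0.70. RPL34 measured 212 and 151 FPKM on TCP and 165 and 159.9 on polymer X. RPS27, a zinc finger protein of the small subunit, measured 108 and 69.0 FPKM on TCP and 75.9 and 78.5 on polymer X. In both genes the polymer X libraries lay between the TCP libraries, of which replicate 1 was the higher.

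The log2 fold change was -0.14 for RPL34 (95% interval -0.43 to 0.15, adjusted p = 0.342) and -0.16 for RPS27 (-0.52 to 0.20, adjusted p = 0.377). RPS27 had the largest SE of the members (0.161, against a median of 0.079), so its value was among the least precise. Without TCP replicate 1 both were above 0, at 0.11 and 0.16.

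Small decreases were called in several other core genes. RPL9 measured 19.9 and 19.6 FPKM on TCP and 16.6 and 15.6 on polymer X (log2 fold change -0.28, adjusted p = 0.00181). RPL15 measured 125 and 112 FPKM on TCP and 94.0 and 88.2 on polymer X (log2 fold change -0.37, adjusted p = 0.000761), and RPS20 in the head 546 and 482 against 399 and 385 (-0.39, adjusted p = 0.00106). These genes were lower in both polymer X libraries, by less than most of the family. RPL9 and RPL15 lost their calls after quantile normalization, and RPS20 without a filter (adjusted p = 0.0553).

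RPL5, RPL11, RPS6, RPS4X and RPS14 were lower, RPL11 by about the family median and the others by less. RPL5 and RPL11, which with 5S rRNA bind and inhibit the p53 ligase MDM2, were both lower. RPL11 measured 946 and 846 FPKM on TCP and 542 and 549.8 on polymer X (log2 fold change -0.71, adjusted p = 1.92e-05). RPL5 measured 319 and 293 FPKM on TCP and 209 and 214 on polymer X (-0.53, adjusted p = 4.52e-05). RPS6, the substrate of the S6 kinases, measured 462 and 419.7 FPKM against 334 and 324 (-0.42, adjusted p = 0.000358). These genes had no overlapping libraries between the cultures, as in most tested genes (48.4% lay below TCP and 41.9% above). RPS4X, which lies on the X chromosome, measured 719.9 and 649 FPKM on TCP and 508 and 490.3 on polymer X (-0.45, adjusted p = 0.000345), and lost its call after quantile normalization (-0.076, adjusted p = 0.267). RPS14, the small subunit gene with the highest level, measured 1159 and 994 FPKM on TCP and 764 and 798 on polymer X (-0.46, adjusted p = 0.000968), and lost its call without a filter on low values (adjusted p = 0.0983).

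RPL41 encodes the smallest protein of the ribosome. It measured 344 and 259 FPKM on TCP and 193 and 178 on polymer X (log2 fold change -0.68, adjusted p = 0.000407), a call lost without a filter (adjusted p = 0.0710). Of the 18 genes listed for Diamond-Blackfan anaemia, an inherited failure of red cell production caused by loss of 1 copy of a ribosomal protein gene, 17 were lower, with a median of -0.73. This is 94.4% of the list, near the 94.9% of the whole family, beside 43.6% of all tested genes. RPL31 in this list measured 669.8 and 550.1 FPKM on TCP and 424 and 421 on polymer X (-0.52, adjusted p = 0.000555), and lost its call without a filter (adjusted p = 0.0641) and after quantile normalization (-0.13, adjusted p = 0.117). RPS29 measured 473 and 311 FPKM against 246 and 253 (-0.62, adjusted p = 0.00469) and lost its call without polymer X replicate 1 (adjusted p = 0.0524), without a filter (adjusted p = 0.170) and after quantile normalization (-0.30, adjusted p = 0.0881). Its TCP replicates were further apart than its polymer X level was from TCP replicate 2.

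The variant paralogs differed from one another. RPL39L, a paralog of RPL39 known from male germ cells and some tumors, was expressed at 41.6 and 36.6 FPKM on TCP and 15.7 and 12.8 on polymer X. RPL39 measured 19.1 and 15.5 FPKM on TCP and 6.94 and 8.55 on polymer X. Both members of this pair were thus lower, by log2 fold changes of -1.39 for RPL39L (adjusted p = 8.31e-07) and -1.07 for RPL39 (adjusted p = 1.34e-05), and the difference between them was not tested. RPS27L, a paralog of RPS27 induced by p53, measured 35.7 and 27.8 FPKM on TCP and 27.3 and 28.4 on polymer X, with overlapping libraries and no call (-0.17, adjusted p = 0.141). RPL10, the partner of RPL10L, measured 149 and 139 FPKM on TCP and 113 and 110.3 on polymer X (-0.37, adjusted p = 0.000305), and lost its call after quantile normalization (-0.019, adjusted p = 0.744). RPL10L and the muscle paralog RPL3L were listed at 0 in both TCP libraries and stayed at or under the floor of 3 tags on polymer X. Reads shared between a gene and its paralog may be split, so values within a pair are uncertain.

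Ribosomal protein genes and paralogs whose names fall outside the rule also fell. RACK1, a scaffold protein on the head of the small subunit, measured 619 and 590.4 FPKM on TCP and 399 and 396 on polymer X (log2 fold change -0.60, adjusted p = 1.83e-05), and is counted below among other TOP mRNAs. FAU, which encodes a ubiquitin-like fusion of a small subunit protein, measured 248 and 218 FPKM against 147 and 145.8 (-0.66, adjusted p = 1.68e-05). The paralogs RPL22L1 (-1.09), RPL26L1 (-0.98), RPL7L1 (-0.75) and RPL36AL (-0.45) were also lower, the last of these not after quantile normalization or without a filter.

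Other mRNAs known to carry a TOP motif, which encode elongation factors and related proteins, were more mixed. Of 23 tested, 16 were lower (69.6%) and 5 higher (21.7%), with a median log2 fold change of -0.44, beside 43.6% and 37.4% of all tested genes. After quantile normalization 10 were lower and 6 higher, with a median of -0.10. The lowest values were those of EEF1B2, an exchange factor of elongation factor 1 (-1.51), the nucleolar protein NPM1 (-1.37) and the poly(A)-binding protein PABPC1 (-1.06). TPT1, the translationally controlled tumor protein, measured 152 and 142 FPKM on TCP and 251 and 249 on polymer X, and rose by 0.76 (adjusted p = 2.08e-06). The prefoldin subunit PFDN5 (0.30) and the initiation factor EIF4B (0.29) also rose, PFDN5 not without a filter, so a TOP mRNA was not always lower.

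Of 23 tested genes of the mTORC1 pathway and of TOP mRNA control, 11 were lower (47.8%) and 10 higher (43.5%), close to the 43.6% and 37.4% of all tested genes. Their median of -0.05 was also near that of all tested genes. DDIT4, an inhibitor of mTORC1 induced by stress, measured 82.2 and 85.1 FPKM on TCP and 415 and 397 in the spheroids, and rose by 2.26 on the log2 scale (adjusted p = 2.87e-09). MTOR, the kinase itself, measured 12.9 and 13.4 FPKM on TCP and 6.10 and 5.29 on polymer X (-1.08, adjusted p = 9.52e-07). The libraries of the 2 cultures did not overlap in either gene, as in most tested genes (48.4% lay below TCP and 41.9% above). The scaffold EIF4G1 (-1.19) and LARP4 (-1.64), which binds poly(A), were also lower, and the amino acid sensing GTPase RRAGA (1.02) and the translation inhibitor PDCD4 (0.99) were higher. mRNA levels do not measure the activity of the pathway.

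Genes whose products handle newly made ribosomal proteins were lower too. All 15 listed chaperones and importers were lower, with a median of -0.90, beside 43.6% of all tested genes. After quantile normalization 11 of the 15 were lower. The importin IPO5 measured 51.3 and 50.5 FPKM on TCP and 17.4 and 15.6 on polymer X (-1.57, adjusted p = 3.29e-08). LTV1, which escorts RPS3 during assembly of the small subunit, measured 17.5 and 17.02 FPKM against 5.02 and 5.20 (-1.58, adjusted p = 2.55e-08). Both were far below TCP in each polymer X library. BCCIP, a chaperone of RPL23, had a similar value (-1.55), and the smallest decreases were those of RPS19BP1 (-0.32), AAMP (-0.28) and the RPS26 chaperone TSR2 (-0.19). None of these last 3 was called after quantile normalization, where AAMP was at 0.030, and TSR2 also lost its call with median-of-ratios scaling and without TCP replicate 2 or polymer X replicate 2.

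Mitochondrial ribosomal proteins form a separate ribosome and are encoded by genes without a TOP motif as a rule. Of 77 tested genes, 65 were lower (84.4%) and 1 higher, beside 43.6% and 37.4% of all tested genes. Their median log2 fold change was -0.73, close to the cytosolic value of -0.70. After quantile normalization 57 were lower and 3 higher, with a median of -0.52, against -0.41 for the cytosolic genes. Most genes of both kinds of ribosome were thus lower on polymer X, and the difference between the sets was not tested.

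**Figure D4:**
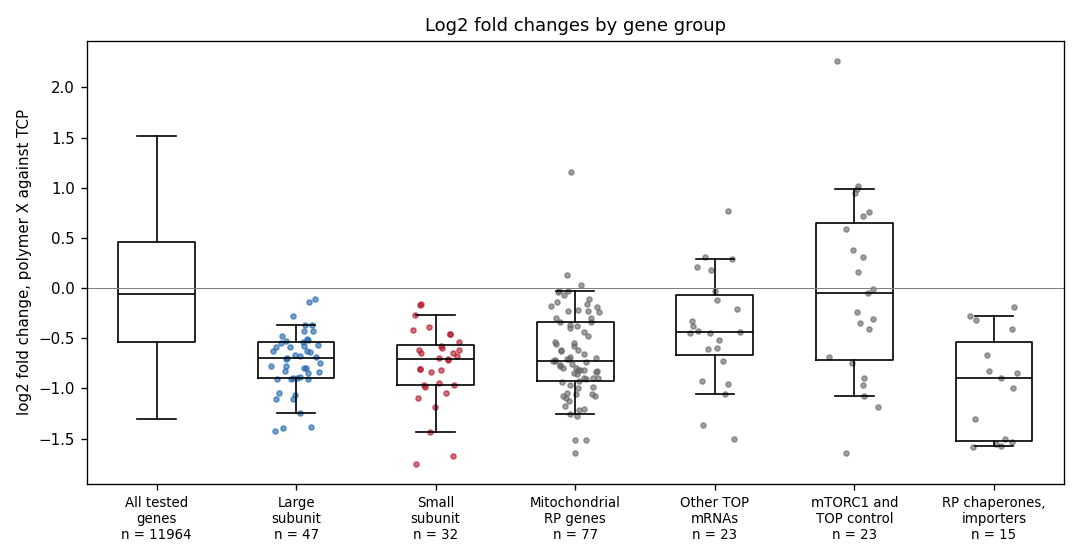
Log2 fold changes (polymer X minus TCP) of the members by subunit and of the other gene lists, as points over boxes from the lower to the upper quartile with the median as a line and whiskers from the 5th to the 95th percentile (all tested genes as a box without points). Medians were -0.70 for both subunits, -0.90 for chaperones and importers, -0.73 for mitochondrial ribosomal protein genes, -0.44 for other TOP mRNAs and -0.05 for mTORC1 and TOP mRNA control.

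Short transcripts differed between the TCP replicates. TCP replicate 1 was above replicate 2 in 77 of 79 members, by a median of 0.18 on the log2 scale, while polymer X replicate 1 was above replicate 2 in 63, by 0.043. Other genes under 600 bases differed by 0.21 between the TCP replicates, and those of 2000 bases and more by -0.016. The same shorter genes lay lower on polymer X, with a median log2 fold change of -0.22 under 600 bases and -0.03 from 2000 bases. Within each of these length classes the members were lower than the other genes, at -0.78 under 600 bases (31 members) and -0.54 from 2000 bases (6 members). The part of transcript length in the fold changes was not tested further. Without TCP replicate 2 the median was -0.81 for the large and -0.87 for the small subunit, and without TCP replicate 1 it was -0.63 and -0.62.

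Abundant genes outside the family were also lower, to a smaller degree. The 361 other genes with a mean of at least 100 FPKM had a median log2 fold change of -0.45, with 61.5% lower, and the 82 of these under 1000 bases a median of -0.41, with 62.2% lower. The 61 members at this level had a median of -0.70, with 96.7% lower.

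**Figure D5:**
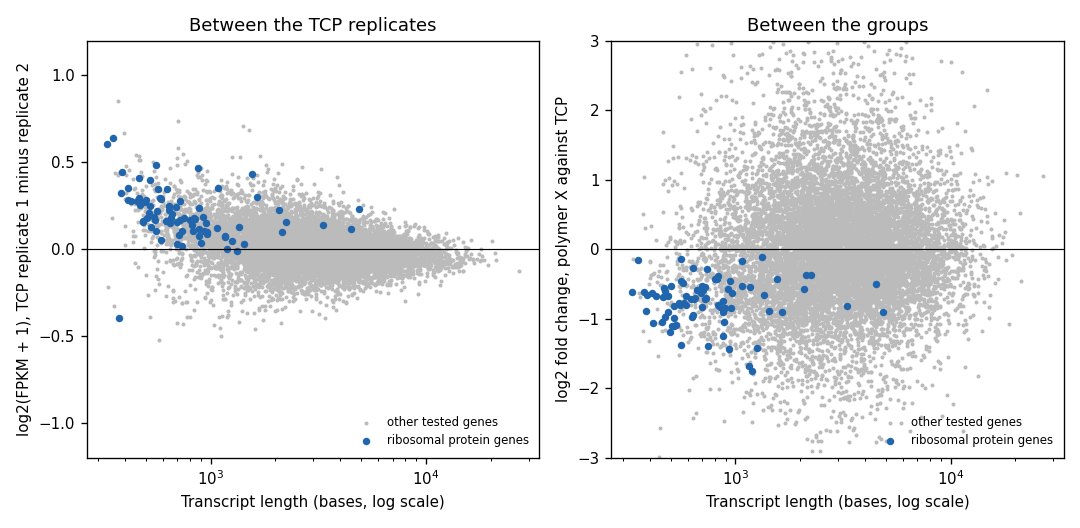
Difference between the TCP replicates (left, log2, replicate 1 minus 2) and log2 fold change of polymer X against TCP (right) by transcript length in bases (log axis), for members and other tested genes. Members lay above 0 on the left (77 of 79) and below 0 on the right (79 of 79, of which 5 turned positive after quantile normalization), and 83 other genes outside plus or minus 3 are not drawn on the right.

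The choice of transcript had little effect on most fold changes. With the transcripts of a gene summed, the change in the family's share was smaller, as given below. The 81 members had 174 transcript rows, of which 172 passed the filter, and all 172 had a negative log2 fold change in the deposited scaling. In the 41 members with more than 1 such row the values within a gene spanned a median of 0.019. The widest span was 0.40 in RPS29, from -0.62 in the kept row to -0.21. Rows of a gene share most of their reads and are not independent.

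Promoter sequence beyond the start was also described for the 64 members with a window of 250 bases before and 50 bases after the start. The ETS-type core CCGGAA was found on either strand in 57.8% of members and 20.01% of other genes. The TATA box core TATAAA was found in 9.38% and 14.0%. These are matches of letters, and no binding was measured.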

How the data were processed

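RNA-seq libraries of SKOV3 cells (2 on TCP, 2 on polymer X) were made from mRNA with a kit that 1 label sentence calls directional. The authors deposited FPKM values for each RefSeq transcript on hg19, counted by HOMER over exons without regard to strand, so overlapping antisense transcripts are included. STAR 2.4.0 and DESeq are also named in the submitters' processing notes. Coordinates with gene levels are those of hg19 and sequence windows are from RefSeq on GRCh38.p14, where 64 of 81 symbols matched. The header of the deposited table lists further libraries, which were not analysed here.

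For each of 19475 symbols (50078 transcripts) 1 transcript was kept, that with the highest mean over the 4 libraries. Genes with at least 1 FPKM in at least 2 libraries (11964) were fitted on log2(FPKM + 1) with limma 3.58.1 (R 4.3.3, mean-variance trend, group only), 2-sided with Benjamini-Hochberg adjustment, and called at 0.05. Fold changes on this scale understate those of low genes. The tags behind each library were recovered from the steps of low values, of which 100% lay within 0.1 of a whole tag. A floor of 3 tags is 0.0668 to 0.0781 FPKM for 1000 bases, and it covers counting error only. On simulated data for this comparison with 11708 genes tested, 200 of 200 genes changed by 0.7 on the log2 scale were called, as were 20 of 11508 unchanged genes. Genes raised by 0.7 were fitted at a mean of 0.61. The simulated libraries held no deviation shared between genes, such as that between the TCP replicates, so error from such deviations was not measured.

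Named genes were the members called with a log2 fold change of at least 1 in size, the 8 highest and 8 lowest, the highest and lowest level of each subunit, 10 landmark genes, the paralogs with their partners, the genes outside the naming rule, and the 3 highest and 3 lowest called genes of each other list. A few genes that meet these criteria are not reported here. Other genes were picked once their values were known. The members and lists were chosen with earlier results of these data known. Same-numbered libraries did not deviate together (correlation 0.093 over 11964 genes), so no pairing was assumed. Results were recomputed with a pseudocount of 0.1, without a filter or with one at a mean of 5 FPKM, and with quantile normalization, median and median-of-ratios scaling, a replicate block, no variance trend, the sum or median of transcripts, and each library left out.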

Additional observations from a re-analysis of the deposited data

How the results depend on the processing

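The count of lower members stayed between 63 and 78 under every alternative tried, with none higher except RPL3L without a filter (1 member, at 1 tag in each polymer X library). Without a filter 63 members were lower, and 64 after quantile normalization. Quantile normalization gave medians of -0.40 for the large and -0.43 for the small subunit and 8 members called with a log2 fold change of at least 1 in size. It turned AAMP (0.030), RPL3 (0.055), RPL34 (0.23), RPS27 (0.16) and RPS27L (0.078) positive, and the cause was not tested. Without TCP replicate 1, RPL34 (0.11), RPS27 (0.16) and RPS27L (0.0048) were positive, whereas without TCP replicate 2 they were called lower, at -0.38, -0.48 and -0.35. With 1 library left out, a lone library being assumed to vary like the other group, 73 to 78 members were lower, 10 to 22 were called at that size, the medians ran from -0.81 to -0.63 (large) and from -0.87 to -0.62 (small), their difference from -0.0089 to 0.061, and the change in share from -3.66 to -2.64 percentage points. With the transcripts of a gene summed the share changed by -2.49 points. With a replicate block 76 members were lower (RPS27L gained a call), 14 had a log2 fold change of at least 1 in size, and no other call of a named gene changed. Of all called genes, 53.8% were lower here and 63.1% among genes with a mean of at least 5 FPKM. The 2 libraries a group and the shared reads of low members limit these results.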

Other observations

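Ribosomal protein genes near ERBB2 on chromosome 17 were looked at after their values had been seen. ERBB2, a receptor gene amplified in SKOV3 cells, measured 198 and 206 FPKM on TCP and 913 and 860.4 in the spheroids (log2 fold change 2.13). RPL19, 495 kb away on hg19, measured 849.8 ± 70.5 FPKM on TCP and 582 ± 0.447 on polymer X (SD, n = 2), which gave a log2 fold change of -0.54 with an adjusted p of 0.000133. RPL23, 846 kb away, had a log2 fold change of -0.48 with an adjusted p of 0.00209, and lost its call without a filter on low values and after quantile normalization. Both values lay below 0, by less than the family median, while ERBB2 rose.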
